A study of Mus musculus with 4 samples.

Results

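C2C12 is a mouse myoblast line that can leave the cell cycle and fuse into contractile myotubes. Polyadenylated RNA was sequenced from C2C12 cells held in adipogenic medium for up to 8 days, either with 50 µM sesaminol, a lignan of sesame seed, in 2 libraries, or without it, in 2 control libraries. Both groups shared the adipogenic medium. The labels do not say whether replicate libraries are separate cultures, and p-values therefore cover only the spread among these 4 libraries, which may be technical. The genes described are 8 that encode muscle myosin light chains and myosin-binding proteins, out of 52636 in the count table. They were taken by symbol, and each symbol matched 1 identifier. Of the 8 genes, 5 encode light chains (Myl1, Myl2, Myl3, Myl4 and Mylpf) and 3 encode binding proteins (Mybpc1, Mybpc2 and Mybph).

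A muscle myosin molecule is built from heavy chains whose lever arms each bind an essential and a regulatory light chain. Fast fibres use the essential chains made from Myl1 and the regulatory chain from Mylpf, slow fibres and the cardiac ventricle use Myl3 and Myl2, and Myl4 encodes the essential chain of embryonic muscle and of the atria. Myosin-binding proteins C and H sit on the thick filament, where protein C limits how readily myosin heads reach actin. Mybpc1 and Mybpc2 encode its slow and fast skeletal forms, and Mybph encodes protein H.

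Sequence upstream of the start site is shown for 4 of the genes that fell with sesaminol, those with an E-box and no annotated exon of the gene in the window. Each window is the 250 bases before a RefSeq start site (GRCm38.p6), 5′ to 3′ on the strand of the gene. Capitals mark every E-box, the letters CANNTG that myogenic helix-loop-helix factors bind. The windows are chr7:127211358-127211607 (plus strand) for Mylpf, chr1:134193198-134193447 (plus strand) for Mybph, chr10:88605153-88605402 (minus strand) for Mybpc1 and chr7:44524670-44524919 (minus strand) for Mybpc2.
Mylpf: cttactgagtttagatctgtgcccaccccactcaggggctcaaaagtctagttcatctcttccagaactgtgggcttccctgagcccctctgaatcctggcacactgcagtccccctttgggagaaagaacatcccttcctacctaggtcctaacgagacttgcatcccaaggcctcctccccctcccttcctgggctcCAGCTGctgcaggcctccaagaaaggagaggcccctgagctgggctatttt
Mybph: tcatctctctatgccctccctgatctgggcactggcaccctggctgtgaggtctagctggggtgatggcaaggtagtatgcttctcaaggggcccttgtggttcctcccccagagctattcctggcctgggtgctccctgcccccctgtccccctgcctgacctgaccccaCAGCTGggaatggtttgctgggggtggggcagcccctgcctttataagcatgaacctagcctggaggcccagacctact
Mybpc1: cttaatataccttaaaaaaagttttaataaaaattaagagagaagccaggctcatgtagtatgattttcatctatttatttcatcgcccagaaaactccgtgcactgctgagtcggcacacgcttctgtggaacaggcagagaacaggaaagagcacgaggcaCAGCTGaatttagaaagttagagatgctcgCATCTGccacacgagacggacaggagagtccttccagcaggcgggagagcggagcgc
Mybpc2: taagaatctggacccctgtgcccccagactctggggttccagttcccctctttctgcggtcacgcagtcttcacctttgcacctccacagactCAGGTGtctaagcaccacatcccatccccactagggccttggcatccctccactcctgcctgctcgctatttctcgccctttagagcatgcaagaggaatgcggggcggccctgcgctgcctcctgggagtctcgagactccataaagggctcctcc

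The Mylpf, Mybph and Mybpc1 windows share the palindromic E-box CAGCTG, which begins 51, 79 and 87 bases before the RefSeq start site, while Mybpc2 has the form CAGGTG. Mybpc1 has a further E-box, CATCTG, 57 bases before its start. In Mybph the E-box is followed directly, with no overlap, by a minus-strand match to CATTCC, the MCAT element that TEAD factors bind. Searched on both strands, CANNTG occurred upstream of 7 of the 8 genes, in 8 of their 9 windows. It occurred in 66.2% of 32851 RefSeq windows of this length. The form CAGCTG, a subset of those matches, occurred upstream of 5 of the 8 genes, in 5 of the 9 windows, and in 13.0% of RefSeq windows. CATTCC occurred upstream of 4 of the 8 genes, in 4 of the 9 windows, and in 12.6% of RefSeq windows. The MEF2 motif was found upstream of 0 of the 8 genes and in 2.92% of windows, and the CArG box of serum response factor upstream of Myl3 alone and in 1.47% of windows. TATAAA on the sense strand was found upstream of 0 of the 8 genes and in 7.59% of windows. Myl4 was the gene with no E-box, and its RefSeq start is the most upstream of several annotated starts. Myl2 has a pair of windows, whose RefSeq starts lie 8227 and 7762 bases from the nearest start in GENCODE M21. Of this pair, only the window at 7762 bases holds CAGCTG. In the Myl1 window, 103 bases lie in annotated exons. These matches describe letters and not measured binding.

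Total counts were 15807638 and 24362899 in sesaminol replicates 1 and 2, and 10283135 and 14083165 in control replicates 1 and 2. Mitochondrial genes took 1.44% of counts in sesaminol replicate 2, which stood apart, and 2.95% to 3.36% in the rest. With sesaminol, 3.24% of the 18998 genes tested fell and 2.72% rose (edgeR adjusted p under 0.05). Of 8 myotube markers, 5 fell with sesaminol (Myog, Ckm, Mb, Tnnt3 and Actn2), and the summed level of the list was 5997 and 4263 CPM (counts per 1000000) in sesaminol replicates 1 and 2, against 10530.2 and 10061.5 CPM in control replicates 1 and 2. In bulk RNA, fewer myotubes and less of a transcript per myotube cannot be told apart. Of 5 markers of undifferentiated myoblasts and reserve cells, Cd34 and Sdc4 rose, Myod1 fell, and Myf5 and Pax7 did not pass the test. Myl2, Myl3 and Myl4 are also expressed in heart, and the atrial light chain gene Myl7 had 0 counts in all 4 libraries, which allows up to 0.201 and 0.112 CPM in sesaminol replicates 1 and 2 and up to 0.298 and 0.219 CPM in control replicates 1 and 2. The 7 cardiomyocyte markers summed to 33.0 and 32.2 CPM with sesaminol and 43.6 and 39.0 CPM in controls. Of these, Gata4 averaged 24.1 CPM with sesaminol and 21.8 CPM in controls, and Myh6 averaged 2.76 CPM with sesaminol and 12.5 CPM in controls. Myh6 fell, Gata4, Nkx2-5 and Tnni3 did not pass, and Nppa, Nppb and Myl7 had too few counts to be tested. The 6 smooth muscle markers summed to 732 and 744 CPM with sesaminol and 1532 and 1379 CPM in controls. Acta2 and Tagln fell, Smtn and Lmod1 did not pass, and Myh11 and Cnn1 were under 2 CPM throughout. The 6 adipocyte markers summed to 4.69 and 3.95 CPM with sesaminol and 8.94 and 6.65 CPM in controls, and Adipoq was among those under 1 CPM. The 5 fibroblast markers summed to 852 and 646 CPM with sesaminol and 1165 and 1233 CPM in controls. Col1a1 fell, while Pdgfra, Dcn and Lum did not pass. The 5 macrophage markers summed to 17.1 and 22.1 CPM with sesaminol and 19.96 and 16.4 CPM in controls. The part of these cell types in the results below was not tested.

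Sesaminol-treated cells held less mRNA of the fast and embryonic light chains and of all 3 binding proteins. Of the 8 genes, 6 fell, 0 rose, 1 did not pass (Myl2) and 1 had too few counts to be tested (Myl3). The rises were also 0 at an unadjusted p under 0.05 and with DESeq2 and limma-voom, which called 641 and 419 rises over all genes tested. The falls ran from 2.07-fold for Mylpf to 6.02-fold for Mybpc2. Over the 18998 genes tested, 3.24% fell and 2.72% rose (edgeR quasi-likelihood test on 2 libraries per group, Benjamini-Hochberg adjusted p under 0.05). The median log2 fold change of the 7 tested genes was -1.72, and that of all genes tested was 0.02. In each of the 7 both sesaminol libraries were below both control libraries, an arrangement that 22.8% of all tested genes had. Myl2 was kept by the filter mainly on its control counts, so its place in these counts is no support for a difference. Leaving out control replicate 1 left 2 falls, of Myl4 and Mybpc1, and leaving out control replicate 2 left 3, of those and Mybpc2.

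**Figure D1:**
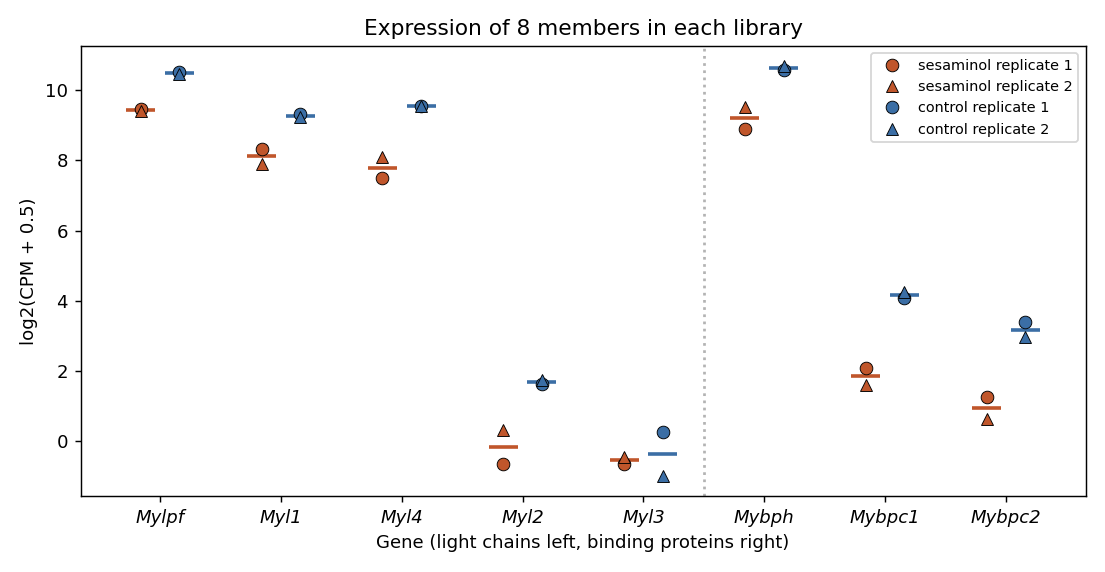
Expression of the 8 genes in each library, as log2(CPM + 0.5), with sesaminol libraries left of control libraries, circles for replicate 1, triangles for replicate 2 and bars for the group means (n = 2 each). The groups are apart for 7 genes and overlap for Myl3.

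Among the regulatory light chains, Mylpf (ENSMUSG00000030672, chromosome 7, 127208890 to 127214298, plus strand, GRCm38) carried nearly all the reads. Mylpf, whose product is phosphorylated to tune force in fast fibres, had 10535 and 18312 counts in sesaminol replicates 1 and 2, against 14702 and 19297 counts in control replicates 1 and 2. Scaled for depth, these were 705 and 683 CPM with sesaminol and 1460.1 and 1409 CPM in controls. The sesaminol libraries lay close together and well below both controls, and the ratio of the higher to the lower library was 1.03 with sesaminol and 1.04 in controls. Mylpf averaged 694 ± 16.1 CPM with sesaminol and 1435 ± 35.9 CPM in controls (SD, n = 2 each), a log2 fold change of -1.05 ± 0.22 (SE; edgeR adjusted p = 0.0285). With control replicate 1 or control replicate 2 left out it no longer passed (edgeR adjusted p = 0.489 and 0.454), at a log2 fold change of -1.03 and -1.08.

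Myl2 (ENSMUSG00000013936, chromosome 5, 122100951 to 122113472, plus strand), the slow and ventricular regulatory chain, was rare. It had 2 and 20 counts in sesaminol replicates 1 and 2, against 26 and 39 counts in control replicates 1 and 2. That is 0.134 and 0.746 CPM with sesaminol and 2.58 and 2.85 CPM in controls, and the count of sesaminol replicate 1 was under the 3-count limit of that library. Myl2 was lower in both sesaminol libraries, but these differed 5.57-fold from each other. Its log2 fold change was -2.50 ± 0.75 (SE) and did not pass (edgeR adjusted p = 0.0988, unadjusted p = 0.00852). Leaving out a sesaminol library moved the value to -1.90 without replicate 1 and -4.24 without replicate 2. The latter value rests on the 2 counts of sesaminol replicate 1. In both fits the spread comes from the controls alone, so passing would say little and no p-value is given. Ccdc63, on the opposite strand with 60 exonic bases in common, had 4 and 42 counts in sesaminol replicates 1 and 2 and 4 and 8 in control replicates 1 and 2. The library kit is not stated to keep strand, so reads in those bases cannot be assigned to either gene.

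The essential light chains Myl1 and Myl4 both fell. Myl1 (ENSMUSG00000061816, chromosome 1, 66924295 to 66945404, minus strand), which gives rise to the long and short fast chains from separate start sites, had 4795 and 6396 counts in sesaminol replicates 1 and 2, against 6399 and 8188 counts in control replicates 1 and 2. In CPM this was 321 and 238 with sesaminol and 635 and 598 in controls, with the lower sesaminol value in replicate 2. Myl1 averaged 279.8 ± 58.4 CPM with sesaminol and 617 ± 26.5 CPM in controls (SD, n = 2 each), a log2 fold change of -1.14 ± 0.22 (SE; edgeR adjusted p = 0.0175). The gene-level counts do not separate its long and short chains. It did not pass when control replicate 1 or 2 was left out (edgeR adjusted p = 0.187 and 0.160).

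Myl4 (ENSMUSG00000061086, chromosome 11, 104550663 to 104595753, plus strand), the embryonic and atrial chain, fell further. It had 2686 and 7305 counts in sesaminol replicates 1 and 2, against 7504 and 10204 counts in control replicates 1 and 2. The levels were 179.85 and 272 CPM with sesaminol, while both controls stood at 745 CPM. Here the lower sesaminol library was replicate 1, the reverse of Myl1. Myl4 averaged 226 ± 65.4 CPM with sesaminol and 745 ± 0.0115 CPM in controls (SD, n = 2 each), a log2 fold change of -1.72 ± 0.24 (SE; edgeR adjusted p = 0.00502). It passed under each alternative tried, with a log2 fold change from -2.04 to -1.49.

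Myl3 (ENSMUSG00000059741, chromosome 9, 110741861 to 110769798, plus strand), the slow and ventricular essential chain, was near the limit of detection. It had 2 and 6 counts in sesaminol replicates 1 and 2, against 7 and 0 counts in control replicates 1 and 2, where 0 allows up to 0.219 CPM. The groups overlapped, and no difference was detectable at this depth. Pth1r, which shares 95 exonic bases with it on the opposite strand, had 2 and 22 counts in sesaminol replicates 1 and 2 and 11 and 6 in control replicates 1 and 2, so even these few reads may belong to Pth1r.

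The skeletal protein C genes had the largest falls among the 6. Mybpc1 (ENSMUSG00000020061, chromosome 10, 88518279 to 88605152, minus strand), the slow form, had 56 and 68 counts in sesaminol replicates 1 and 2, against 166 and 253 counts in control replicates 1 and 2. This was 3.75 and 2.54 CPM with sesaminol and 16.5 and 18.5 CPM in controls, 21.4% and 14.5% of the control mean in sesaminol replicates 1 and 2. Mybpc1 averaged 3.14 ± 0.859 CPM with sesaminol and 17.5 ± 1.41 CPM in controls (SD, n = 2 each), a log2 fold change of -2.50 ± 0.29 (SE; edgeR adjusted p = 0.00212). It passed under each alternative tried, with a log2 fold change from -2.83 to -2.21.

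Mybpc2 (ENSMUSG00000038670, chromosome 7, 44501699 to 44524656, minus strand), the fast form, had 28 counts in each sesaminol library and 100 in each control library. Corrected for depth, the level was 1.87 and 1.04 CPM in sesaminol replicates 1 and 2, and 9.93 and 7.30 CPM in control replicates 1 and 2. The groups did not overlap, and within each group replicate 2, the deeper library, was lower. Mybpc2 averaged 1.46 ± 0.588 CPM with sesaminol and 8.62 ± 1.86 CPM in controls (SD, n = 2 each), a log2 fold change of -2.59 ± 0.43 (SE; edgeR adjusted p = 0.00896). Its call was lost without control replicate 1 (edgeR adjusted p = 0.0537). The overlapping transcripts Gm48752 at Mybpc1 and Gm44646 at Mybpc2 had at most 12% of the count of the gene in any library.

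Mybph (ENSMUSG00000042451, chromosome 1, 134193448 to 134201232, plus strand), which encodes protein H, was far more abundant than the protein C genes. It had 7123 and 19936 counts in sesaminol replicates 1 and 2, against 15359 and 22511 counts in control replicates 1 and 2. Scaled for depth, this was 477 and 743 CPM with sesaminol and 1525 and 1644 CPM in controls. Like Myl4, it was lower in sesaminol replicate 1 than in sesaminol replicate 2, and both were below the controls. Mybph averaged 610.1 ± 188 CPM with sesaminol and 1585 ± 83.9 CPM in controls (SD, n = 2 each), a log2 fold change of -1.38 ± 0.28 (SE; edgeR adjusted p = 0.0207). Its call was lost when either control was left out (edgeR adjusted p = 0.144 without replicate 1 and 0.234 without replicate 2).

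The exons of Mybph overlap those of Adora1, the adenosine A1 receptor gene on the opposite strand, over 1162 of the 2329 exonic bases of Mybph. Adora1 had 2522 and 6898 counts in sesaminol replicates 1 and 2, against 5328 and 7676 counts in control replicates 1 and 2. In each library the Adora1 count was nearly the same share of the Mybph count, namely 35.4% and 34.6% in sesaminol replicates 1 and 2 and 34.7% and 34.1% in control replicates 1 and 2. Adora1 had a log2 fold change of -1.35 ± 0.24 (SE; edgeR adjusted p = 0.0121), close to that of Mybph. The counts do not tell which gene the reads in the shared bases came from.

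**Figure D2:**
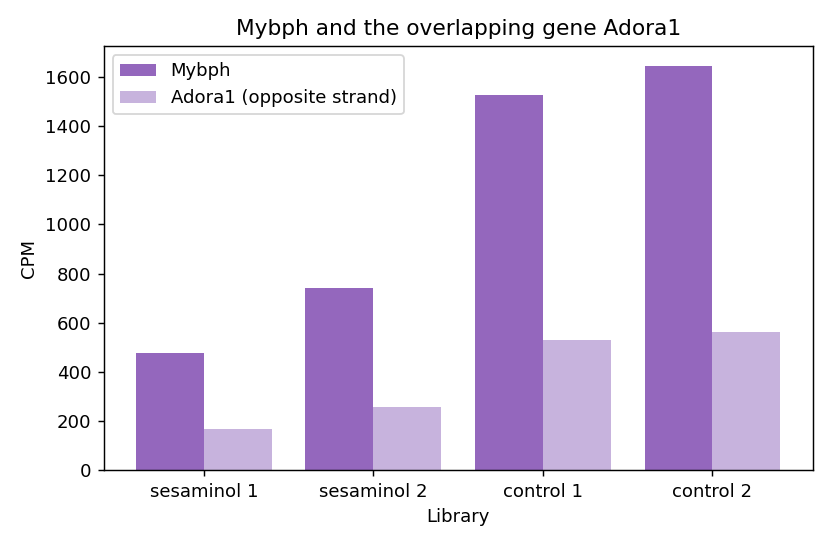
CPM of Mybph and of Adora1, which overlaps it on the opposite strand, in each library, with sesaminol libraries left of control libraries. Both genes were lower in the sesaminol libraries, and Adora1 stood at 34.1% to 35.4% of the Mybph count in all 4.

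Compared per length, the genes fell into an abundant and a rare set in both groups. As RPKM, which divides CPM by the kilobases of annotated exon, Mylpf averaged 654 ± 15.1 with sesaminol and 1351 ± 33.8 in controls (SD, n = 2 each). Mybph was next at 262 ± 80.8 RPKM with sesaminol and 680.4 ± 36.0 RPKM in controls. Myl1 stood at 135 ± 28.2 RPKM with sesaminol and 297 ± 12.8 RPKM in controls. Myl4 stood at 48.8 ± 14.1 RPKM with sesaminol and 161 RPKM in both controls. The rare set held Mybpc1, at 0.694 ± 0.190 RPKM with sesaminol and 3.86 ± 0.311 RPKM in controls, and then Mybpc2, Myl2 and Myl3 in that order. With sesaminol the library ranges of Mybpc2 and Myl2, and of Myl2 and Myl3, overlapped, whereas in controls no neighbours in the order did. The orders of Myl1 and Myl4, and of Mybpc2 and Myl2, depend on the length used. Over the longest well-supported coding transcript in place of all exons, Myl1 and Myl4 had 259 and 251 RPKM with sesaminol, with overlapping ranges, and 570.0 and 828 RPKM in controls. Over that length Myl2 stood above Mybpc2 in both groups. They had 0.664 and 0.404 RPKM with sesaminol, where the ranges overlapped, and 4.10 and 2.39 RPKM in controls, where they did not. The ranges of Mybph and Myl1 then also overlapped with sesaminol, and those of Mybpc1 and Myl2 in both groups. In controls Mybph and Myl4 then stood close, at 867 and 828 RPKM.

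The 2 sesaminol libraries did not show the same profile of these genes. Relative to the control mean in CPM, sesaminol replicates 1 and 2 held 52.1% and 38.7% for Myl1, 49.2% and 47.6% for Mylpf, and 21.8% and 12.1% for Mybpc2. They held 24.1% and 36.5% for Myl4, 30.1% and 46.9% for Mybph, and 4.93% and 27.5% for Myl2. Thus Myl1, Mybpc1 and Mybpc2 were lower in replicate 2, Myl4, Mybph and Myl2 were lower in replicate 1, and Mylpf was nearly equal. With sesaminol the higher library exceeded the lower by 1.03-fold for Mylpf, by 1.35-fold to 1.80-fold for Myl1, Myl4, Mybpc1, Mybph and Mybpc2, the last on 28 counts in each library, and by 5.57-fold for Myl2. The median over the 12878 tested genes that averaged 5 CPM or more was 1.19. In controls the 7 genes differed by 1.00-fold to 1.36-fold, against a median of 1.11. In sesaminol replicates 1 and 2, Myog stood at 464 and 708 CPM, Myod1 at 208 and 139 CPM and Myf5 at 50.4 and 26.3 CPM. In control replicates 1 and 2, Myog stood at 1272 and 1415 CPM, Myod1 at 341 and 364 CPM and Myf5 at 32.6 and 32.9 CPM. Of the myotube markers besides Myog, Ttn was nearly equal in the sesaminol libraries. Ckm, Acta1, Des, Mb, Tnnt3 and Actn2 were lower in sesaminol replicate 2. The part of these genes, or of the low mitochondrial share of sesaminol replicate 2, in the split was not tested.

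**Figure D3:**
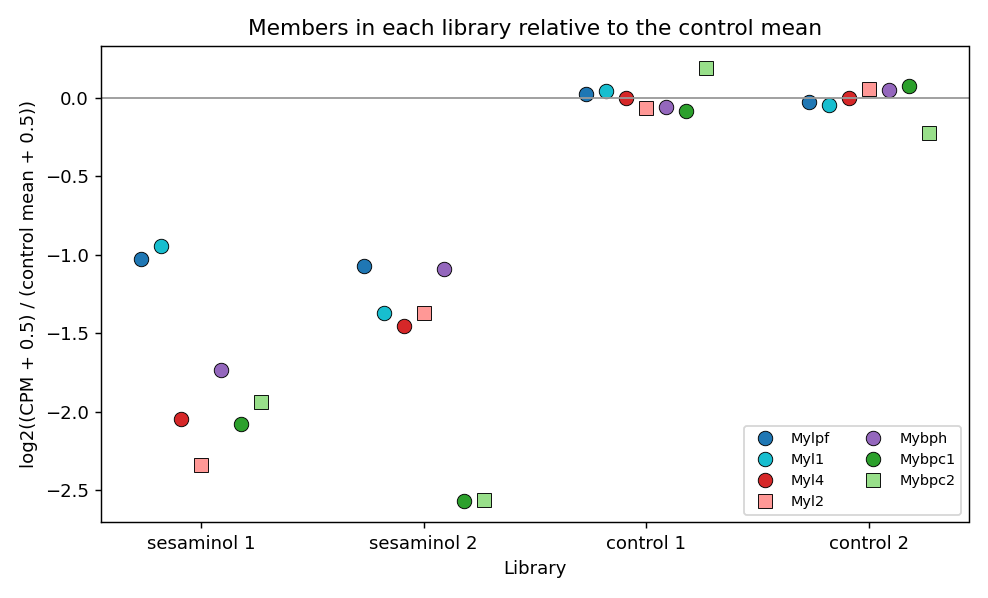
Level of the 7 tested genes in each library relative to the mean of the controls, as log2 of CPM plus 0.5, an addition that shrinks the differences of the rare Myl2, with sesaminol libraries left of control libraries. All sesaminol points lie below the control points, and Myl4, Mybph and Myl2 are lower in sesaminol replicate 1 while Myl1, Mybpc1 and Mybpc2 are lower in sesaminol replicate 2.

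Within a library, 4 ratios were compared, with 0.5 CPM added to each gene. For the rare Myl2 and Myl3 that addition is comparable to or larger than most of their levels, so the size of their ratios depends on it and on the scaling. The log2 ratio of Myl4 to Myl1 was -0.83 and 0.19 in sesaminol replicates 1 and 2, and 0.23 and 0.32 in control replicates 1 and 2. The sesaminol values were lower, but the difference of -0.59 came mostly from replicate 1 and was -0.08 without it. The log2 ratio of Myl2 to Mylpf was -10.12 and -9.10 with sesaminol and -8.89 and -8.72 in controls, a difference of -0.81 that was -0.30 without sesaminol replicate 1 and -2.05 with no CPM added, a setting chosen after seeing the data. The log2 ratio of Myl3 to Myl1 differed by 0.96, and by 0.38 without control replicate 2, but Myl3 had 0 to 7 counts and stayed between 0 and 0.695 CPM, so this value says little of Myl3 itself. The slow to fast protein C ratio, Mybpc1 to Mybpc2, was 0.84 and 0.98 with sesaminol and 0.70 and 1.28 in controls, and these overlapped (difference -0.09, and 0.10 with no CPM added). In an exact permutation test, two-sided, p was 0.33 for the first 3 ratios, the smallest that 2 against 2 libraries can give, and 1.0 for the last, so adjusted over the 4 none can pass.

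Of the genes of the myosin machinery listed beside these 8, 14 of 32 tested fell and 0 rose, with a median log2 fold change of -0.67. Over all 18998 genes tested, 3.24% fell and 2.72% rose. Of 35 listed genes, 3 had too few counts to be tested. At an unadjusted p under 0.05, 1 was higher and 17 were lower, but the share of all genes at that threshold is not given here. DESeq2 and limma-voom each called 14 falls and 0 rises in the list. Over all 18998 genes DESeq2 called 800 falls and 641 rises, and limma-voom called 615 falls and 419 rises. Without sesaminol replicate 1 the log2 fold change of Ppp1r12c was 0.49, and without sesaminol replicate 2 that of Hsp90aa1 was 0.57. In both fits the spread comes from the controls alone, so passing there would say little. Neither gene passed with all 4 libraries, where the groups overlapped for Hsp90aa1. Among 7 light chains of nonmuscle, smooth and atrial type, 5 were tested, 2 fell and 3 did not pass. Myl6b, an essential chain of nonmuscle and slow muscle myosin, had 80.8 ± 0.524 CPM with sesaminol and 264 ± 9.73 CPM in controls (SD, n = 2 each; log2 fold change -1.71 ± 0.17 SE, edgeR adjusted p = 0.00127). Myl9, the smooth muscle regulatory chain, had 9.41 ± 0.133 CPM with sesaminol and 29.0 ± 1.72 CPM in controls (SD, n = 2 each; log2 fold change -1.62 ± 0.19 SE, edgeR adjusted p = 0.00225). The nonmuscle chains Myl6, Myl12a and Myl12b, which like the other genes below that did not pass were named after their values were seen, had log2 fold changes of -0.51 ± 0.19, -0.49 ± 0.21 and -0.01 ± 0.17 (SE) and did not pass (edgeR adjusted p = 0.183, 0.249 and 0.984).

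Among 8 genes of the light chain kinases and phosphatase, 2 fell and 6 did not pass, where 3.24% of all genes tested fell. Mylk4, a further kinase of the family, had 16.1 ± 0.175 CPM with sesaminol and 45.9 ± 8.44 CPM in controls, and Mylk3, known as the cardiac light chain kinase, had 2.18 ± 0.814 CPM with sesaminol and 7.48 ± 0.660 CPM in controls (SD, n = 2 each; edgeR adjusted p = 0.00266 and 0.0355). Mylk2, the kinase of skeletal muscle that phosphorylates the Mylpf product, had 41.6 ± 2.21 CPM with sesaminol and 34.3 ± 0.129 CPM in controls, a log2 fold change of 0.28 ± 0.16 (SE; edgeR adjusted p = 0.430). The 4 phosphatase genes had log2 fold changes from -0.17 for Ppp1cb to 0.48 for Ppp1r12c and did not pass.

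Of 5 myosin folding genes, 2 fell, where 3.24% of all genes tested fell. Unc45b, the muscle chaperone of the myosin head, had 49.9 ± 11.4 CPM with sesaminol and 177 ± 8.75 CPM in controls, and Smyd1, a methyltransferase gene of muscle needed for thick filament assembly, had 94.4 ± 25.6 CPM with sesaminol and 185 ± 8.43 CPM in controls (SD, n = 2 each; edgeR adjusted p = 0.00165 and 0.0295). Both overlap genes with counts of 20% or more of their own, so their values are uncertain. With control replicate 1 or control replicate 2 left out, Mylk3 (edgeR adjusted p = 0.233 and 0.159) and Smyd1 (edgeR adjusted p = 0.102 and 0.194) did not pass. The general forms Unc45a, Hsp90aa1 and Hsp90ab1 did not pass, with log2 fold changes of 0.01, 0.30 and 0.11. Of 9 striated heavy chain genes, 8 fell (Myh1, Myh2, Myh3, Myh4, Myh6, Myh7, Myh7b and Myh8), from 2.93-fold to 8.67-fold, though near-identical copies can exchange reads. Overlapping genes had 75.5% of the count of Myh1 (Myhas), 29.8% of that of Myh7 (Mhrt) and 1360% of that of Myh7b (Trpc4ap). The values of Myh1, Myh7 and above all Myh7b are therefore uncertain. Myh3 did not pass without control replicate 1 or 2, nor Myh2 without control replicate 2. Of 4 nonmuscle and smooth heavy chain genes, 0 passed in either direction with edgeR, DESeq2 or limma-voom (1 was lower at an unadjusted p under 0.05, Myh10), and the most abundant, Myh9, had a log2 fold change of -0.12 ± 0.24 (SE; edgeR adjusted p = 0.889). The cardiac binding protein genes Mybpc3 and Mybphl were under 2 CPM in every library, and the one tested, Mybphl, had a log2 fold change of -0.36 ± 1.32 (SE; edgeR adjusted p = 0.945).

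**Figure D4:**
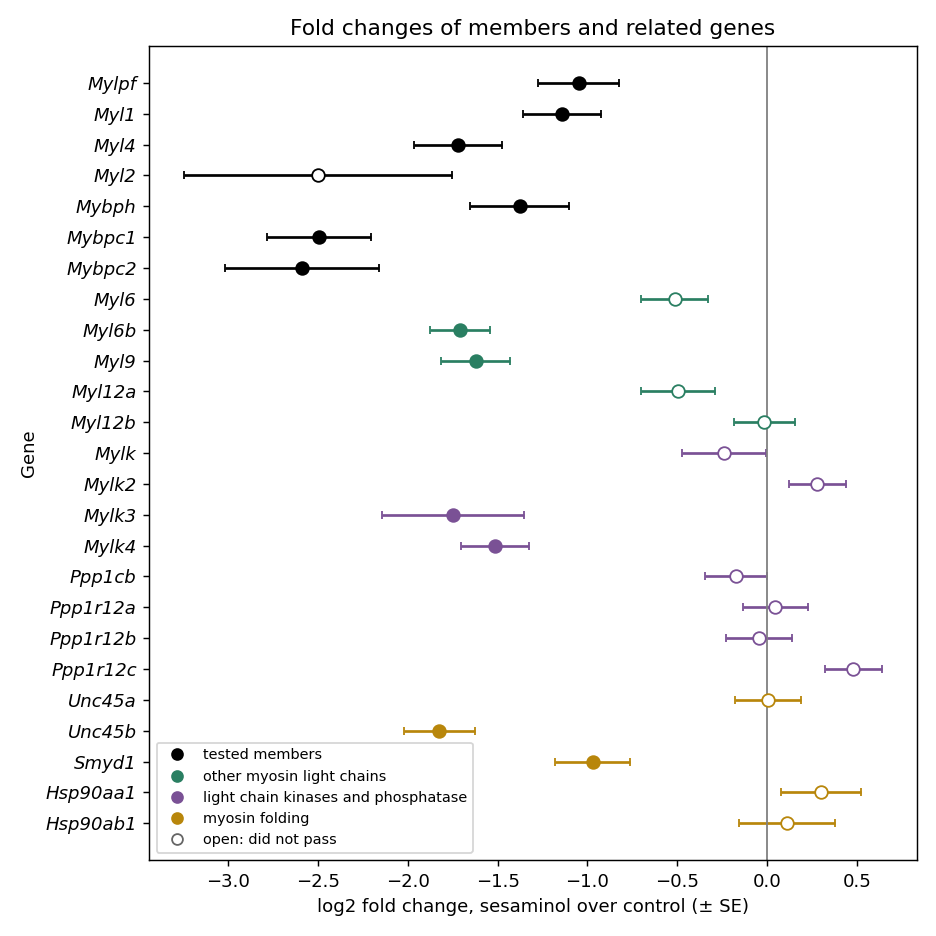
Log2 fold change, sesaminol over control, with its SE, for the 7 tested genes (black) and for other light chains, light chain kinases and phosphatase genes and myosin folding genes. Filled points passed the test, all of them lower with sesaminol, and open points did not.

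Among 11172 other tested genes that averaged 5 CPM or more and have no predicted-gene name (Gm or Rik), the 5 whose centred profile of log2(CPM + 0.5) over the 4 libraries was nearest to the median profile of the 7 tested genes were Csrp3, Adamts16, C1qtnf3, Pxdn and Itgb1bp2, at a root mean square difference from 0.073 to 0.103. Csrp3, which encodes muscle LIM protein, had 14.2 and 17.2 CPM in sesaminol replicates 1 and 2, against 47.9 and 51.0 CPM in control replicates 1 and 2. Itgb1bp2, which encodes the muscle protein melusin, had 39.8 and 56.1 CPM with sesaminol and 161 and 147 CPM in controls. Adamts16, a metalloprotease gene, C1qtnf3, a secreted adipokine gene, and Pxdn, which encodes the matrix peroxidase peroxidasin, are not sarcomere genes. They averaged 2.78, 197 and 68.4 CPM with sesaminol and 9.44, 622 and 230.3 CPM in controls. Adamts16 overlaps Gm36607, whose count is over 20% of that of Adamts16, so its value is uncertain. With no CPM added, 4 of these 5 were again among the nearest 5, with Dpep1, at position 4, in place of Adamts16. Within the 7, and with no CPM added, Myl1 and Mylpf were each nearest to the other (0.146), as were Myl4 and Mybph (0.175) and Mybpc1 and Mybpc2 (0.242), while Myl2 was far from its nearest, Myl4 (0.948). With 0.5 CPM added the distance between Myl2 and Myl4 was 0.149, and each was then the nearest to the other. With only 4 libraries, and these genes chosen for their likeness, the distances are a description.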

How the data were processed

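The 2 sesaminol and 2 control libraries were made from poly(A)-selected RNA, per the labels' protocols. What the authors deposited is 1 table of whole-number read counts, without normalization. Per the submitters' processing notes, FastQC, MultiQC, fastp, Picard, featureCounts and edgeR were used with GRCm38; no aligner, strand setting or annotation release is named there. Among values from 1 to 12, 75.8% to 79.6% were even per library, so both reads of a pair may have been counted, and detection limits (3 counts) cover counting error only and may be too low.

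Genes were filtered by filterByExpr (minimum count 10, minimum total 15), scaled by TMM and tested with edgeR 4.0.16 (R 4.3.3; glmQLFTest on all 4 libraries, two-sided, Benjamini-Hochberg over 18998 genes, threshold 0.05). SE is the estimate over the square root of F. CPM uses TMM effective sizes, which ran from 10069392 to 26824026. Exon lengths, positions and overlaps came from GENCODE M21 (GRCm38), to which 52489 of 52636 identifiers matched. Alternatives were DESeq2 1.42.0, limma-voom (limma 3.58.1), other scalings, no filter, a replicate block, thinned counts and leaving out each library. Halved counts, profiles and ratios with no CPM added, and the subtraction of Adora1 from Mybph were added after the data were seen. On simulated counts, with 100 genes changed at each size, the procedure recovered 61% of 2-fold and 97% of 4-fold changes. It made 8 false calls among 18458 genes. The simulation used a fixed spread, which may differ from that of these libraries. Ratios were compared in scipy 1.17.1, and figures drawn in matplotlib 3.10.9. Named genes are the 8 members, the passing genes (or else the most abundant) of each related list, and the 5 nearest profiles; other genes of the related lists were picked for mention with their values known. The members and lists were chosen with earlier results of these data known.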

Additional observations from a re-analysis of the deposited data

How the results depend on the processing

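The direction of the 7 tested genes held under every alternative, and 0 of the 8 rose in any fit of all 4 libraries. For each of the 7 both sesaminol libraries were below both control libraries. Leaving out a library was therefore no test of direction, and the other settings reuse the same 4 libraries. The calls of Myl4 and Mybpc1 held throughout. Leaving out 1 library at a time gave 2 to 7 falls among the 8 and log2 fold changes of -1.41 to -0.93 for Myl1, -4.24 to -1.90 for Myl2, -1.11 to -1.02 for Mylpf, -3.07 to -2.18 for Mybpc2 and -1.73 to -1.13 for Mybph. With a library left out, the lone library of its group is assumed to vary like the other group. These fits tested 19464 to 20771 genes. Over all genes tested these fits called 276 to 2724 falls and 163 to 1918 rises, and 0 to 1 rises among the related genes. Myl2 passed without a filter on low counts (-2.48), with DESeq2 (-2.56) and with the replicate block (-2.75). Without the filter 985 of 34660 genes fell and 928 rose, and under the replicate block 982 of 18998 genes fell and 893 rose. The causes were not tested. The deviations of same-numbered libraries from their group means were hardly correlated (r = -0.05 across 18998 genes), and no label pairs them. With 2 libraries per group this check cannot tell whether same-numbered libraries shared a culture or a day. The Mybpc1 to Mybpc2 log2 ratio difference turned to 0.025 with thinned counts and 0.10 with no CPM added, and ranged from -0.37 to 0.20 with 1 library left out. Other scalings left 6 falls among the 8. With library size alone Mylk3 and Myh6 did not pass (edgeR adjusted p = 0.0727 and 0.0584), nor did Mylk3 with thinned counts (0.0637). With no CPM added the Myl3 to Myl1 ratio has no value, since Myl3 had 0 counts in control replicate 2. The subtraction of Adora1 cannot inform on Mybph, since a near-constant share leaves the fold as it was. Depth limits Myl3 and Myl2, whose counts were 0 to 39.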
